A study of Mus musculus with 9 samples.

Results

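The genes described here are the histone and DNA methylation modifiers: the Kdm lysine demethylases, the Kmt, Setd, Setdb and Ezh lysine methyltransferases, the Kat acetyltransferases, the Hdac and Sirt deacetylases, the Brd bromodomain readers, the Dnmt DNA methyltransferases and the Tet dioxygenases. They were taken by symbol from the gene table, which gave 89 matching rows. After 7 pseudogene symbols were dropped, 82 of the 45535 rows that carry a symbol were left. Of these, 79 carry symbols of the protein families and 3 are antisense transcripts named after a member (Kdm6bos, Dnmt3aos and Dnmt3bos). Among the 79, Kdm4dl is annotated as an unprocessed pseudogene, and it was kept because only symbols with -ps were dropped.

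Total RNA was sequenced from CD103+ dendritic cells of C57/BL6j mouse lung. All mice had received bleomycin, which injures the lung and leads to fibrosis in mice, for 7 days before the lungs were digested with collagenase and the cells were taken on magnetic beads. RNA came from 5 samples that were harvested directly (before culture) and from 4 samples kept for 18 h in RPMI medium with serum and antibiotics (after culture). The samples before culture therefore carry the bleomycin treatment and the digestion too, and no untreated lung is used here. It is not stated whether 1 mouse or several made up a sample, so p-values measure the spread between these samples, which may be technical.

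Histone tails are acetylated and methylated by writer enzymes, cleared by erasers, and read by proteins with domains for each mark. Acetylation and some lysine methylation mark active promoters, whereas methylation of other lysines of the same tail is the mark of Polycomb and heterochromatin repression. DNA methylation is set and copied by DNA methyltransferases and oxidised by TET enzymes. In dendritic cells and macrophages such enzymes are known to take part in the control of inflammatory and antigen presentation genes.

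The samples held 14.7 to 28.8 M reads before and 26.0 to 35.3 M reads after culture in rows with a symbol. The cell label was checked against 8 genes of type 1 conventional dendritic cells, which in lung carry CD103. All 8 were detected, and their summed normalized read count was 131416 to 158215 before and 17705 to 19621 after culture. Of these genes 7 were lower after culture, among them Itgae, which encodes CD103 itself (18138 ± 1537 before, 1727 ± 335 after), and Batf3 was higher. Marker sums of other cells also moved between the groups, with no overlap: neutrophil 14298 to 25015 before and 932 to 1902 after, endothelial 30589 to 44578 and 3425 to 4576, fibroblast 17234 to 30959 and 2454 to 4804, epithelial 23313 to 37425 and 4417 to 7791, natural killer 1324 to 2753 and 288 to 488. Sums of T cell markers (6895 to 8943 before, 5871 to 7827 after), of B cell markers (2644 to 4899 and 2710 to 3855) and of macrophage markers (33012 to 50341 and 20435 to 33417) overlapped. Lower after culture were 7 of 8 neutrophil, 8 of 8 endothelial, 8 of 8 fibroblast, 6 of 8 epithelial, 5 of 6 natural killer, 3 of 8 T cell, 1 of 6 B cell and 5 of 8 macrophage markers. Higher after culture were 1 T cell marker (Cd3g), 1 B cell marker (Ms4a1) and 1 macrophage marker (Mertk). The neutrophil marker Ly6g, too low to be tested, was at 0 in all 4 samples after culture, and every other marker was detected after culture. Every one of 12 genes of dividing cells was lower after culture, with sums of 23191 to 25141 before and 4625 to 7369 after. In bulk RNA, fewer cells of a type and less RNA per cell cannot be told apart, and the part of these shifts in the changes below was not tested.

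The modifiers divided evenly between genes that rose and genes that fell in culture. A gene was tested where its mean normalized read count was at least 10, which 79 of the 82 members met, and was taken as changed at a limma adjusted p under 0.05 over all 18202 genes tested. Of the 79, 26 were higher after culture, 26 were lower and 27 did not pass. This is 65.8% of the tested members, beside 68.8% of all tested genes, so a change as such does not set the modifiers apart. The share of all tested genes that were higher was 34.2%, and 34.6% were lower. The median log2 fold change was 0.03 over the members and 0.0065 over all tested genes. Large changes were few. Of the 79 tested members, 4 rose by at least 2-fold (Dnmt3l, Dnmt3aos, Kdm1b and Sirt1), where 14.1% of all tested genes did. A fall of at least 2-fold was seen for 7 of the 79 (Kdm6b, Kdm6bos, Hdac9, Hdac6, Tet1, Hdac7 and Hdac5), where 18.6% of all tested genes fell so far. Dnmt3l met the filter only through its samples after culture. The values of the groups did not overlap for 49 of the 79 tested members, beside 57.3% of all tested genes.

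Fold changes of single genes are given on the log2(normalized count + 1) scale with their standard error, and folds in words are ratios of group means. Means are followed by the SD over the 5 samples before and the 4 after culture. The normalized counts are not corrected for GC content or length, and the members have long transcripts (median 4663 bases, beside 2948 over all tested genes) with a median GC content of 51.2% (49.3% over all). When the trend of log2 levels with transcript GC content and length was removed from every sample, 44 members were higher and 15 lower, so that 74.6% of the changed members were higher in place of an even split. The same correction moved the share over all changed genes from 49.7% to 58.1% higher and the median log2 fold change of all genes to 0.13. Values with this correction are given beside most of the changes that it turned, ended or moved by over 1.5 times. The named genes whose direction or call it changed are also listed in the section on processing.

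**Figure D1:**
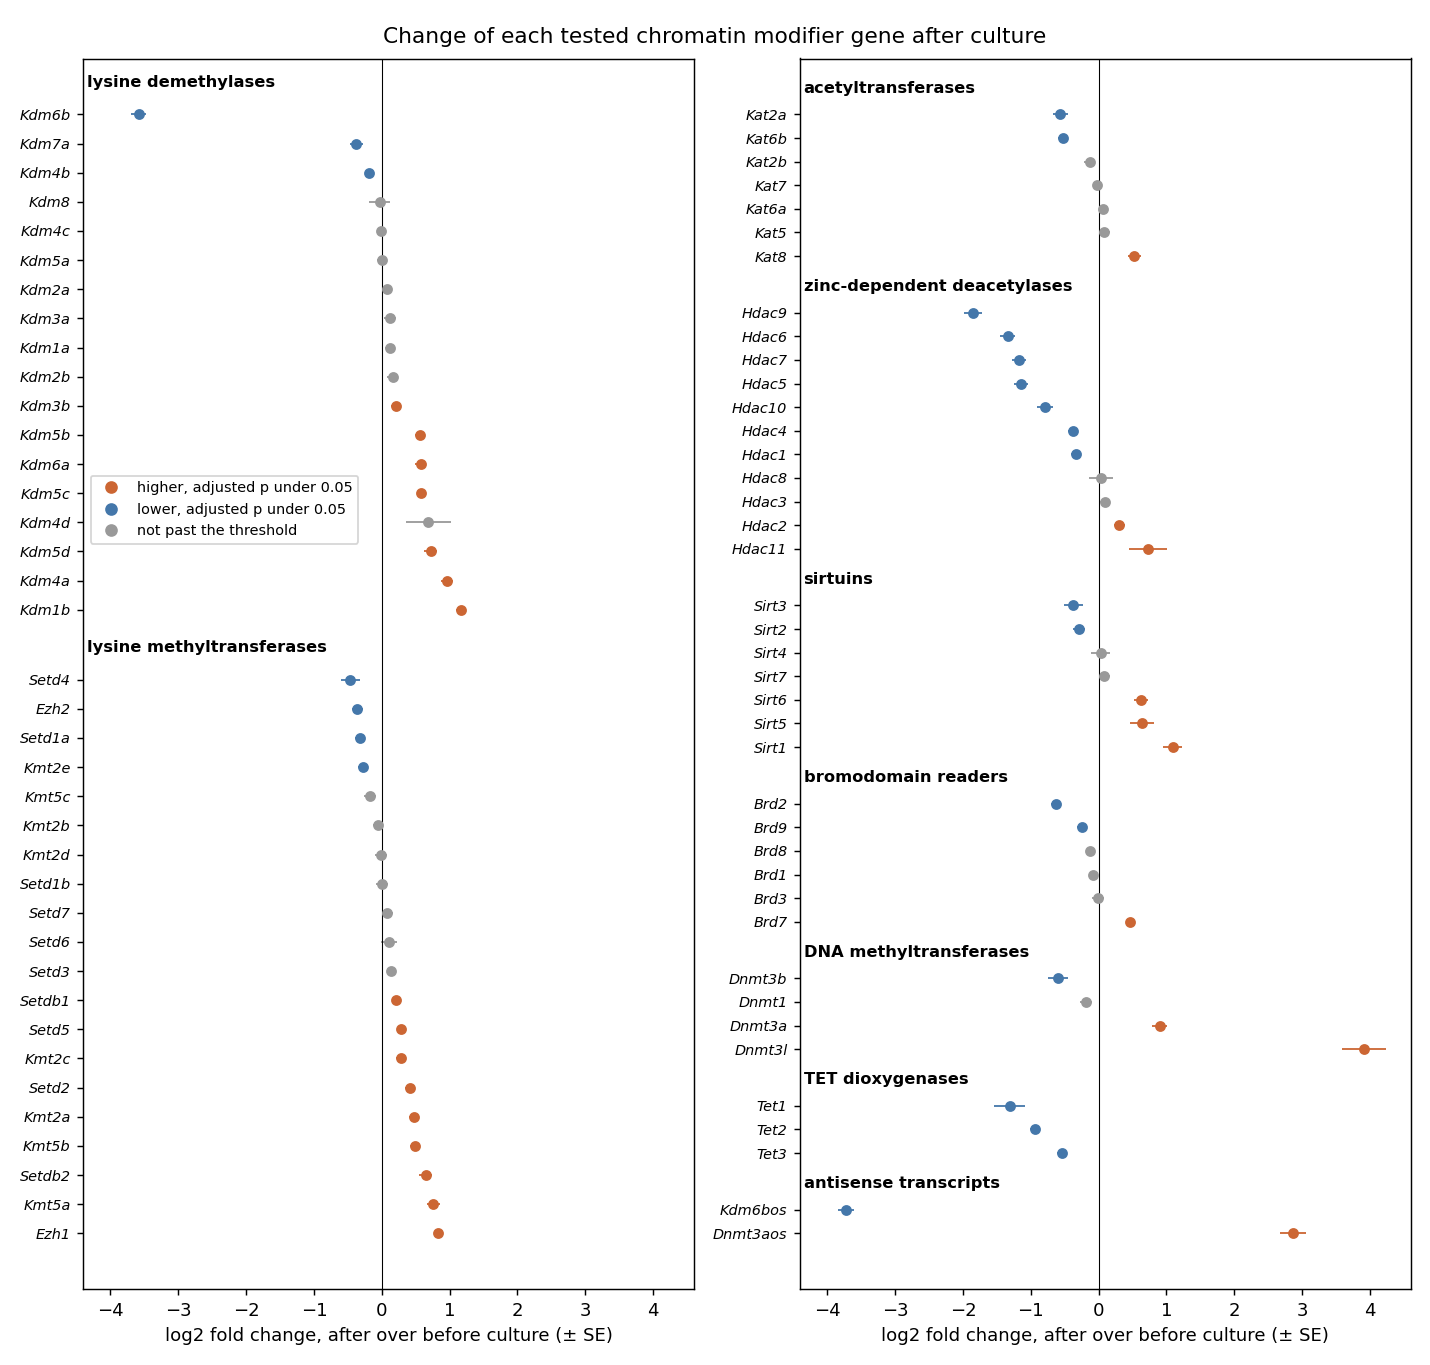
Log2 fold change (after over before culture, x axis) with its standard error for 78 of the tested members, grouped by enzyme class; orange points were higher and blue points lower at an adjusted p under 0.05, and grey points did not pass. Kdm6b, Kdm6bos, Dnmt3l and Dnmt3aos lie furthest from 0, at -3.58, -3.72, 3.91 and 2.86, and most other members lie within 1 unit of 0.

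Lysine demethylases remove methyl groups from histone lysines, and the class held the largest fall among the protein-coding members. Of its 18 tested genes, 7 rose, 3 fell and 8 did not pass, and the median log2 fold change was 0.14. Kdm6b (chr11:69398508-69413675, minus strand, GRCm38) encodes JMJD3, an inflammation-inducible enzyme that clears the Polycomb mark. Its normalized read counts before culture were 45557, 44457, 48195, 35151 and 53508 in replicates 1 to 5. After culture they were 3978, 4009, 3439 and 3620 in replicates 1 to 4. Every sample before culture lay about an order of magnitude above every sample after it. The mean fell 12.1-fold in culture (log2 fold change -3.58, SE 0.109, adjusted p = 1.3e-11). With the GC and length correction the change was -2.79.

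Per kilobase of its longest transcript, Kdm6b was the most abundant of the 82 members before culture (6819 normalized reads per kb) and ranked 29 after it (565 per kb). It made up 50.1 ± 4.18% of the summed per-kb level of the lysine demethylases before culture and 6.42 ± 0.606% after. The antisense gene Kdm6bos (chr11:69401513-69402700, plus strand) lies inside Kdm6b. It fell alongside, from 938, 854, 950, 941 and 1027 before culture to 77.7, 60.7, 84.6 and 61.6 after, with no overlap. The change was 13.2-fold on means and -3.72 in log2 (SE 0.12, adjusted p = 1.87e-11). Of the 50-base windows of the Kdm6bos transcript, 19.1% occur on the opposite strand of Kdm6b transcripts, and no source used here states that the counting used strand. Reads of the 2 genes can therefore not be told apart in the overlap.

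Kdm6a, the X-linked paralog of Kdm6b that is also known as UTX, moved the other way. Counts were 2226, 2167, 2200, 2491 and 2356 before culture and 3289, 2905, 3881 and 3601 after, and the groups did not overlap (log2 fold change 0.57, SE 0.0868, adjusted p = 5.46e-05; 0.38 with the correction). Within a sample, the log2 ratio of Kdm6a to Kdm6b rose from -4.30 ± 0.28 before culture to -0.14 ± 0.28 after it. This was the widest shift of the 18 paralog pairs compared (difference 4.15; two-sided exact permutation test over samples, p = 0.0159, the smallest this design allows; 0.0204 adjusted over the pairs).

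Kdm1b (LSD2), a flavin-dependent histone demethylase, rose most among the demethylases. It went from 724, 684, 677, 701 and 650 before culture to 1473, 1409, 1656 and 1640 after, a gap of more than the whole spread within either group. The mean was 2.25-fold higher (log2 fold change 1.17, SE 0.0763, adjusted p = 1.58e-08). Of the Kdm1b transcript windows 9.23% occur on the opposite strand of Dek transcripts. Kdm1a (LSD1), the paralog of Kdm1b, stood at 1640 ± 89.3 before and 1784 ± 96.5 after and did not pass. Kdm4a, which acts on repressive and elongation-linked lysine methylation, was at 3421, 2988, 2868, 2590 and 2766 before culture. It was at 6196, 5378, 5255 and 6017 after, without overlap (log2 fold change 0.97, SE 0.0879, adjusted p = 4.25e-07). Per kb, Kdm4a moved from rank 23 to rank 4 of the members and was the leading demethylase after culture, with 13.9 ± 0.948% of the class total.

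The Kdm5 genes encode demethylases of the promoter methyl mark, and 3 of the 4 rose. Kdm5b rose from 1082, 1069, 1098, 1309 and 1128 to 1603, 1650, 1677 and 1770 (log2 fold change 0.56, adjusted p = 2.28e-05). X-linked Kdm5c and its Y-linked counterpart Kdm5d rose by 0.58 and 0.72 in log2 (1.02 and 0.65 with the correction), and neither overlapped between groups. Kdm5a stayed in the same range, with 3086 ± 214 before and 3101 ± 174 after (log2 fold change 0.008, adjusted p = 0.93). Accordingly, the log2 ratio of Kdm5a to Kdm5b went from 1.44 ± 0.08 to 0.89 ± 0.05 (exact permutation p = 0.0159, 0.0204 adjusted). Kdm3b rose by 0.21 (0.66 with the correction). Kdm7a fell by 0.37 (-0.67 with it) and Kdm4b by 0.18, and Kdm4b turned to a rise of 0.51 with the GC and length correction. Kdm1a, Kdm2a, Kdm2b, Kdm3a, Kdm4c, Kdm4d, Kdm5a and Kdm8 did not pass, Kdm4c with the smallest change of the class (-0.0042). With the correction Kdm2a, Kdm2b, Kdm1a and Kdm4d were higher and Kdm4c was lower. Other genes share 23.8% of the Kdm2b windows, with 11.3% on the opposite strand of Rnf34. Kdm4d stood at 6.67 to 16.1 before and 12.9 to 28.2 after, near the filter, and Kdm4dl had at most 5 reads in any sample and was not tested.

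**Figure D2:**
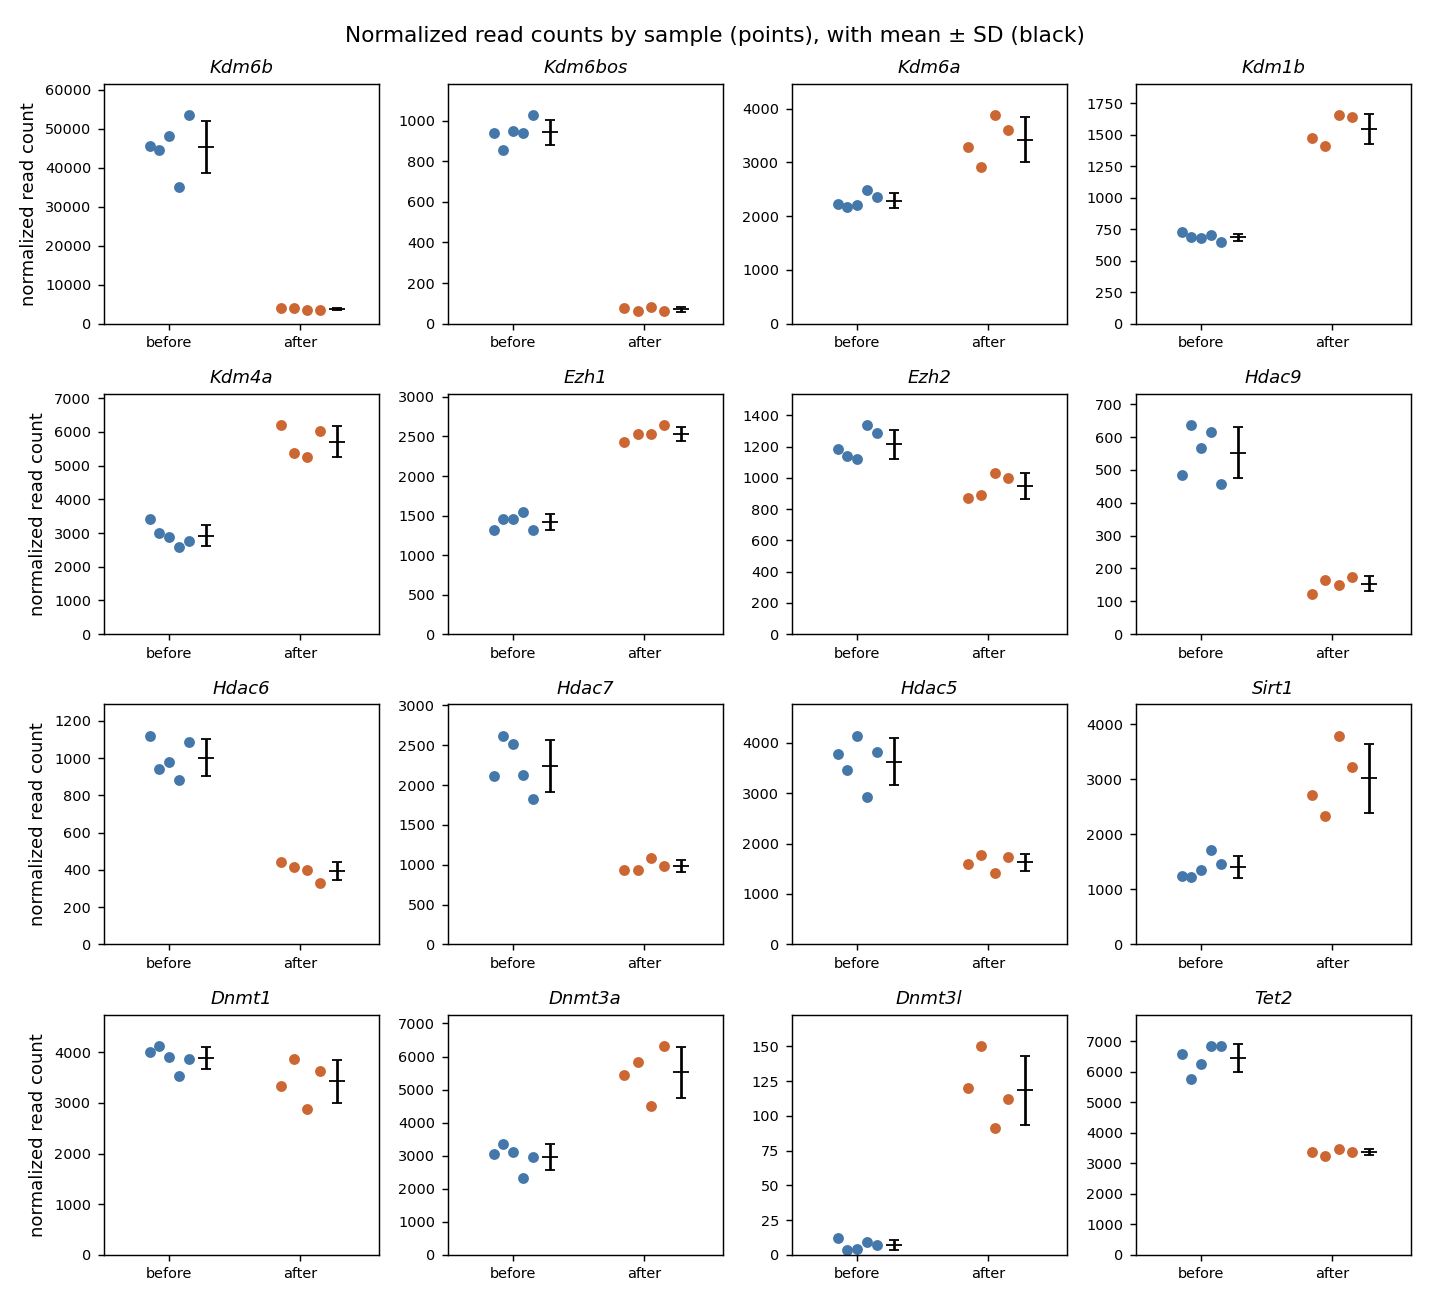
Normalized read counts of 16 members in each of the 5 samples before (blue) and 4 samples after culture (orange), with the mean and SD of each group in black and the y axis of each panel starting at 0. The groups do not overlap in any panel except that of Dnmt1, where 3528 to 4121 before meets 2883 to 3857 after.

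Lysine methyltransferases place the methyl marks. The class was taken by symbol (Kmt, Setd, Setdb and Ezh), and whether each gene product methylates histones was not checked. Of 20 tested genes, 9 rose, 4 fell and 7 did not pass, none by as much as 2-fold, with a median log2 fold change of 0.12 (0.50 with the GC and length correction). The clearest contrast was between the alternative catalytic subunits of Polycomb repressive complex 2 (PRC2). Ezh1, the form known from resting cells, was at 1321, 1459, 1457, 1548 and 1323 before culture and 2428, 2533, 2537 and 2641 after. Ezh2, the form known from dividing cells, was at 1184, 1143, 1124, 1337 and 1289 before and 870, 891, 1035 and 999 after. Neither gene overlapped between groups, and they moved in opposite directions. Ezh1 rose by 0.84 in log2 (SE 0.071, adjusted p = 2.14e-07) and Ezh2 fell by 0.36 (SE 0.0839, adjusted p = 0.00187; -0.54 with the correction). The log2 ratio of Ezh1 to Ezh2 went from 0.23 ± 0.14 to 1.42 ± 0.10 (exact permutation p = 0.0159, 0.0204 adjusted), and the difference of 1.19 became 1.67 with the correction. The summed level of the 12 markers of dividing cells fell 4.00-fold between the same groups, and its part in the Ezh1 and Ezh2 values was not tested.

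Kmt5a (SETD8), which adds the first methyl group to a lysine of histone H4, rose from 2343, 2236, 2369, 1892 and 2493 to 3704, 4276, 3338 and 4044 (log2 fold change 0.76, SE 0.0946, adjusted p = 8.93e-06). Per kb it passed from rank 12 to rank 2 of the members. Kmt5b and Kmt5c extend the mark that Kmt5a starts. Kmt5b rose from 1968 ± 61.3 to 2759 ± 228 (log2 fold change 0.48, adjusted p = 4.26e-05). Kmt5c, at 1688 ± 166 and 1496 ± 156, did not pass, but was higher with the correction (0.51). The log2 ratio of Kmt5b to Kmt5c rose from 0.23 ± 0.16 to 0.89 ± 0.12 (exact permutation p = 0.0159, 0.0204 adjusted), but with the correction the difference was 0.05 and did not pass. Setdb2, of the family that writes repressive methylation on histone H3, rose from 571 ± 56.5 to 896 ± 113 (0.65), and Setdb1 from 1509 ± 65.8 to 1755 ± 70.0 (0.22). With the correction these rises were 0.37 and 0.36. The fall of their log2 ratio from 1.40 ± 0.14 to 0.98 ± 0.16 did not pass with the correction (exact permutation p = 0.984 adjusted, 0.0204 without it).

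Among the large methyltransferases of the COMPASS complexes, which methylate promoters and enhancers, Kmt2a (MLL1) rose from 7639 ± 409 to 10596 ± 810 (0.47, adjusted p = 9.09e-05) and Kmt2c from 8742 ± 567 to 10631 ± 727 (0.28), or by 0.87 and 0.49 with the correction. Kmt2b (5515 ± 425 and 5319 ± 234) and Kmt2d (24129 ± 2161 and 23857 ± 799) did not pass, with log2 fold changes of -0.05 and -0.01. Both were higher with the correction, at 0.74 and 0.82, as was Setd1b, at 0.79 in place of -0.0015, the smallest change of the class. Setd1a fell by 0.32 but rose by 0.33 with the correction, and 54.0% of its transcript windows also occur in Gm49388, so its reads may be split. The Kmt2a to Kmt2b log2 ratio went from 0.47 ± 0.12 to 0.99 ± 0.11, a difference of 0.52 that was 0.13 with the correction. It and the Setd1a to Setd1b ratio (-1.37 ± 0.16 to -1.69 ± 0.07) passed with an exact permutation p of 0.0159 (0.0204 adjusted). The Kmt2c to Kmt2d ratio did not pass (-1.46 ± 0.21 to -1.17 ± 0.08, exact permutation p = 0.0635, 0.0714 adjusted). With the correction its difference was -0.32 in place of 0.29 and passed (exact permutation p = 0.0238 adjusted).

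Of the remaining genes of the class, Setd2, the enzyme of the transcription-coupled mark on histone H3, rose from 5653 ± 447 to 7549 ± 464 (0.42, adjusted p = 0.000272), and Setd5 by 0.28 (0.53 with the correction). Kmt2e fell by 0.27 and Setd4 by 0.46, the latter not past the threshold with the correction (-0.18) or with quantile scaling (adjusted p = 0.0939). Of the Kmt2e windows 12.7% overlap Srpk2 on the opposite strand. Setd3, Setd6 and Setd7 did not pass, with changes of 0.14, 0.11 and 0.08. With the correction Setd6 and Setd7 were higher, at 0.53 and 0.22.

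Acetyltransferases of the Kat families changed little. Of the 7 genes, 1 rose, 2 fell and 4 did not pass, and the median log2 fold change was -0.02, or 0.17 with the correction. Kat8 (MOF), the main acetyltransferase of a lysine of histone H4, rose from 243, 282, 259, 264 and 295 to 420, 382, 364 and 385 (0.53, SE 0.0969, adjusted p = 0.000284), without overlap. Kat6b fell from 1794, 1725, 1574, 1812 and 1752 to 1179, 1145, 1287 and 1181 (-0.53, adjusted p = 1.74e-05). Its paralog Kat6a stood at 7045 ± 216 and 7403 ± 452, so that their log2 ratio widened from 2.03 ± 0.10 to 2.63 ± 0.13 (exact permutation p = 0.0159, 0.0204 adjusted). Kat2a (GCN5) was lower by 0.56, with 937 in replicate 4 before culture under the highest sample after culture (947), and stood at 0.02 with the correction. The Kat2a to Kat2b ratio did not pass after adjustment (difference -0.43, exact permutation p = 0.0476, 0.0571 adjusted), and its difference was 0.13 with the correction. Kat2b, Kat5, Kat6a and Kat7 did not pass, and Kat7 was nearest to 0 (-0.02, 3155 ± 181 and 3118 ± 192). With the correction Kat5 and Kat6a were higher, at 0.48 and 0.23, and 17.2% of the Kat5 windows occur on the opposite strand of Rnaseh2c.

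Zinc-dependent deacetylases remove acetyl groups from histones and other proteins. Of the 11 genes, 7 fell, 2 rose and 2 did not pass. The median log2 fold change was -0.37, and -0.26 with the GC and length correction, under which the median of all genes was 0.13. All 4 class IIa genes, which encode deacetylases that bind the MEF2 transcription factors and shuttle out of the nucleus, were lower, with a median of -1.16, although Hdac4 was at 0.07 with the correction. Both class IIb genes were lower too. Of the 4 class I genes 1 fell, 1 rose and 2 did not pass. Class II as a group was singled out after these values were seen.

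Hdac9, a class IIa gene, had the largest fall. Its counts were 486, 636, 568, 614 and 458 before culture and 123, 166, 149 and 174 after. Every sample before culture lay far above every sample after it. The mean was 3.61-fold lower (log2 fold change -1.85, SE 0.134, adjusted p = 4.53e-08), and the value with the correction was also -1.85. Hdac7 went from 2115, 2620, 2515, 2128 and 1820 to 930, 940, 1087 and 987 (-1.17, SE 0.104, adjusted p = 3.24e-07). Hdac5 went from 3779, 3465, 4135, 2913 and 3806 to 1588, 1780, 1413 and 1733 (-1.15, SE 0.103, adjusted p = 3.83e-07). Neither overlapped between groups. Hdac7 and Hdac5 remained lower with the correction but at -0.38 and -0.37. Hdac4 was at 2396, 2503, 2505, 2111 and 2513 before and 1919, 1879, 1797 and 1822 after (-0.37, adjusted p = 0.000409). Hdac7 is known from endothelial cells and thymocytes, and the summed endothelial markers fell 9.40-fold between the groups. Their part in the class IIa values was not tested.

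The promoters of the 3 class IIa genes that fell by at least 2-fold are shown because all 3 fell, though to different extents. Each runs from 250 bases before to 50 after a RefSeq start (GRCm38.p6), 5′ to 3′ on the gene's strand, at chr11:102230123-102230422 for Hdac5, chr15:97844453-97844752 for Hdac7 and chr12:34917046-34917345 for Hdac9, all on the minus strand. Capitals mark any match, on either strand, to the MEF2 box (CTA and TAG with any 4 bases between them), the E-box CACGTG, the AP-1 site TGANTCA, the cAMP response element TGACGTCA or the GC box GGGCGG.
Hdac5: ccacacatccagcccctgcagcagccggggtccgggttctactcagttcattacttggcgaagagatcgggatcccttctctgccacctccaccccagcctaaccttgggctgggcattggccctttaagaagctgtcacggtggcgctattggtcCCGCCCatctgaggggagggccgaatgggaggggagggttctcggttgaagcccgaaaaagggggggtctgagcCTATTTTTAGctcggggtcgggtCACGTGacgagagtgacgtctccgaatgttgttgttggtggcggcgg
Hdac7: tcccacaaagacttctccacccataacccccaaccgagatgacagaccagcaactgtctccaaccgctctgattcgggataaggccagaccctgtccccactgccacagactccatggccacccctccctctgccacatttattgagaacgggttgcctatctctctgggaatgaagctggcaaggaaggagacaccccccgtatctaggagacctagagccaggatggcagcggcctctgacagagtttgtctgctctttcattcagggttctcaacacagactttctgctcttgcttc
Hdac9: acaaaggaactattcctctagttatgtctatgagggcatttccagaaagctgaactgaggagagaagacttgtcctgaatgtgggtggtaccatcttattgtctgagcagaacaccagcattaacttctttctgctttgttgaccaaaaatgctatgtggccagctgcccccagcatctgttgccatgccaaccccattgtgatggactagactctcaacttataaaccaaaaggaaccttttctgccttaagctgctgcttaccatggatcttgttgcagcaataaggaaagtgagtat
Hdac5 held 1 MEF2 box, 1 E-box, 1 GC box and 18 CpG dinucleotides. Hdac7 and Hdac9 held none of the 5 motifs, with 6 and 0 CpG. RefSeq lists 4 starts for Hdac7 and 2 for Hdac9, and only the start nearest the annotated 5′ end of each gene was examined. RefSeq promoters were at hand for 64 of the 82 members, 1 start per gene, and for 32851 starts in all, with several for some genes. A MEF2 box was in 3.69% of all these promoters and in 3 of the 64 (4.69%), an E-box in 7.15% and 6.25%, an AP-1 site in 7.81% and 6.25%, and a cAMP response element in 1.79% and 0. A GC box was in 35.7% of all and 59.4% of the member promoters, and the median number of CpG was 7.0 and 21.5. A match is a description of letters in this window, not a site.

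Hdac6, of class IIb, is a largely cytoplasmic deacetylase of tubulin. It fell from 1120, 939, 976, 885 and 1088 to 440, 415, 398 and 328 with no overlap, 2.53-fold on means (log2 fold change -1.34, SE 0.104, adjusted p = 8.81e-08; -0.95 with the correction). Hdac10, the other class IIb gene and a polyamine deacetylase, fell from 293 ± 19.1 to 170 ± 24.1 (-0.79, adjusted p = 4.31e-05), and did not pass with the correction (-0.28, adjusted p = 0.0627). In class I, Hdac1 fell from 1957 ± 113 to 1557 ± 79.2 (-0.33, adjusted p = 0.00101; -0.22 with the correction), and 58.7% of its transcript windows occur elsewhere, mostly in Gm10093, so that its reads may be split. Hdac2 rose from 773 ± 54.2 to 955 ± 21.7 (0.31, adjusted p = 0.00275), a change that was at -0.0046 with the correction. The log2 ratio of Hdac1 to Hdac2 went from 1.34 ± 0.16 to 0.70 ± 0.09 (exact permutation p = 0.0159, 0.0204 adjusted), where the correction reduced the difference from -0.64 to -0.21. Hdac3, a catalytic subunit of corepressor complexes, and Hdac8 did not pass, with 1064 ± 57.7 and 156 ± 35.9 before and 1132 ± 91.2 and 157 ± 16.4 after. Hdac11 was low, at 19.1 to 47.0 before and 41.8 to 63.7 after. Its rise of 0.73 (adjusted p = 0.0349; 1.28 with the correction) did not pass without replicate 3 or 5 before or replicate 1, 2 or 3 after culture (adjusted p 0.0521 to 0.0923), and 22.8% of its windows are shared, most with Gm44002 on the opposite strand.

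Within class IIa the members did not fall in step. The log2 ratio of Hdac4 to Hdac5 went from -0.58 ± 0.11 before culture to 0.19 ± 0.14 after it, so that Hdac4 passed Hdac5 on the count scale. That of Hdac7 to Hdac9 went from 2.02 ± 0.14 to 2.69 ± 0.23. Both shifts gave an exact permutation p of 0.0159 (0.0204 adjusted). With the correction the first difference was 0.45 in place of 0.77, and the second 1.47 in place of 0.67. Per kb, Hdac5 held 17.6 to 21.7% of the summed level of the zinc-dependent deacetylases before culture and 11.6 to 13.8% after, whereas Hdac1 held 28.7 ± 0.84% and 32.6 ± 0.705%, and Hdac3 8.88 ± 0.541% and 13.5 ± 0.643%.

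Sirtuins are deacetylases that use NAD. Of 7 genes, 3 rose, 2 fell and 2 did not pass, with a median log2 fold change of 0.08 (0.58 with the correction). Sirt1, the best known nuclear sirtuin, rose from 1244, 1228, 1352, 1713 and 1466 before culture to 2719, 2328, 3790 and 3221 after. The groups did not overlap, although the samples after culture spread widely. The mean was 2.15-fold higher (log2 fold change 1.09, SE 0.135, adjusted p = 8.33e-06; 0.95 with the correction). Sirt6, another chromatin-bound sirtuin, rose from 311, 303, 306, 262 and 297 to 524, 462, 412 and 439 (0.63, adjusted p = 8.59e-05; 1.20 with the correction). Mitochondrial Sirt5, at 61.8 ± 7.70 and 97.6 ± 16.8, rose by 0.64, but 36.9% of its windows occur in other genes such as Wdr31. Sirt2, mostly cytoplasmic, fell from 2975 ± 250 to 2434 ± 263 (-0.29, adjusted p = 0.0108), the groups overlapping, and was at 0.08 with the correction. Mitochondrial Sirt3 fell from 267 ± 40.8 to 207 ± 35.4 (-0.37, adjusted p = 0.0369), which did not pass without replicate 1, 3 or 4 before or replicate 1, 2 or 4 after culture (adjusted p 0.0516 to 0.136), nor with quantile scaling (0.284). Sirt4 and Sirt7 did not pass (0.03 and 0.08), but both were higher with the correction (0.36 and 0.58). Per kb, Sirt2 made up 56.8 ± 2.22% of the summed sirtuin level before and 42.8 ± 5.05% after culture, and Sirt1 12.9 ± 2.37% and 25.3 ± 4.97%.

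The promoters of Sirt1 (chr10:63338986-63339285, minus strand), Kdm1b (chr13:47043249-47043548, plus strand) and Dnmt3l (chr10:78042037-78042336, plus strand) are shown as those of the protein-coding members that rose by at least 2-fold, with the same window, build and capitals as above.
Sirt1: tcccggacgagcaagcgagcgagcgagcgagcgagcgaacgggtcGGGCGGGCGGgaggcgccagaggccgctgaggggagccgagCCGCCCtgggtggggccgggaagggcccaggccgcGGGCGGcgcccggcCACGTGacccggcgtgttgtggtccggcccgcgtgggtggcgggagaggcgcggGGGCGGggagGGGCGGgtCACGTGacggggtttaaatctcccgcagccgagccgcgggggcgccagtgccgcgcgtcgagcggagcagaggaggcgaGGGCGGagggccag
Kdm1b: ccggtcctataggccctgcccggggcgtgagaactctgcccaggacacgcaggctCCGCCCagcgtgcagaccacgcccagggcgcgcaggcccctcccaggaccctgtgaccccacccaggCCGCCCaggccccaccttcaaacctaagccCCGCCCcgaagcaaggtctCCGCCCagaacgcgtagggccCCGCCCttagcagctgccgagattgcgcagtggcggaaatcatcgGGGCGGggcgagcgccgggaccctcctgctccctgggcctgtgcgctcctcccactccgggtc
Dnmt3l: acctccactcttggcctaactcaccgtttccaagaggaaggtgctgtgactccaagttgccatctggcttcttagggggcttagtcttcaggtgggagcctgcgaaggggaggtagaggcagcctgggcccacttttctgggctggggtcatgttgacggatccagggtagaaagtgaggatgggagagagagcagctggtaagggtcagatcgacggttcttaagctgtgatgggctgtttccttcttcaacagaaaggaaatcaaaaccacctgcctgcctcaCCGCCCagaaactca
Sirt1 held 2 E-boxes and 7 GC boxes among 47 CpG, Kdm1b 6 GC boxes and 26 CpG, and Dnmt3l 1 GC box and 6 CpG. None of the 3 promoters shown held a MEF2 box, an AP-1 site or a cAMP response element. RefSeq lists 3 starts for Dnmt3l, of which only the start shown was examined.

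Bromodomain readers bind acetylated lysines. Of the 7 Brd genes tested, 4 passed, in both directions, and the median of -0.12 turned to 0.12 with the correction. Brd2, which ties acetylated chromatin to transcription, fell from 16508, 15697, 16903, 15000 and 17510 to 10524, 10723, 10195 and 10738 (-0.63, SE 0.0709, adjusted p = 3.53e-06). The groups did not overlap, but the change was at 0.02 with the correction. H2-DMa transcripts hold 6.81% of the Brd2 windows on the opposite strand, and whether the counting used strand is not stated. Per kb, Brd2 ranked 2 before and 1 after culture among all members. Brd3, its paralog, was the nearest to 0 (-0.0042, 1046 ± 103 and 1040 ± 36.5) and was higher with the correction (0.32). Brd7, a subunit of a SWI/SNF complex, rose from 1053, 1104, 1090, 1111 and 1146 to 1419, 1675, 1555 and 1467 (0.47, adjusted p = 5.48e-05). Brd9, a subunit of another SWI/SNF complex, fell by 0.24 and did not pass with the correction (-0.11) or with quantile scaling (adjusted p = 0.0765). Brd1 and Brd8 did not pass, and Brd1 was higher with the correction (0.32).

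Of the 4 DNA methyltransferase genes tested, 2 rose, 1 fell and 1 did not pass. Dnmt3a, a de novo methyltransferase, rose from 3038, 3354, 3118, 2334 and 2959 before culture to 5438, 5837, 4512 and 6317 after, with no overlap. The mean was 1.87-fold higher (log2 fold change 0.90, SE 0.114, adjusted p = 1.06e-05). Dnmt1, which copies methylation at replication, was at 4009, 4121, 3909, 3528 and 3875 before and 3323, 3857, 2883 and 3636 after. These ranges overlapped and the change of -0.19 did not pass (adjusted p = 0.0688). The fall did pass without replicate 4 before or replicate 2 after culture (adjusted p = 0.0334 and 0.0219) and with quantile or TMM scaling (0.0110 and 0.0476), whereas the GC and length correction gave a rise of 0.30. The log2 ratio of Dnmt1 to Dnmt3a reversed its sign, from 0.40 ± 0.12 to -0.69 ± 0.09 (difference -1.09, exact permutation p = 0.0159, 0.0204 adjusted; -1.03 with the correction). Per kb, Dnmt1 made up 65.6 ± 1.20% of the class before and 46.9 ± 1.13% after culture, and Dnmt3a 30.1 ± 1.87% and 45.8 ± 1.66%. The 12 markers of dividing cells fell between the same groups, as given above, and their part in the ratio was not tested.

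Dnmt3l encodes a partner of Dnmt3a without catalytic activity that is known from germ cells. It was barely detected before culture (12.4, 3.71, 4.49, 9.21 and 7.16, 35 reads in all) and stood at 120, 150, 91.0 and 112 after culture (581 reads). All 4 samples after culture lay well above all 5 before it. The mean was 16.0-fold higher (log2 fold change 3.91, SE 0.323, adjusted p = 1.63e-07), the largest rise among the members, yet its level per kb (64.9) ranked 68 after culture. The mean of Dnmt3l before culture was under the filter of 10, so the gene was tested only because of its values after culture. Its fold rests on very few reads before culture. Dnmt3b fell from 168 ± 23.7 to 111 ± 17.8 (-0.60, adjusted p = 0.00341). It did not pass with the correction (-0.19), and 11.5% of its windows occur in Dnmt3c. Dnmt3c had 3 reads in all, none of them before culture, and was not tested.

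Dnmt3aos (chr12:3859293-3862244, minus strand) lies inside Dnmt3a (chr12:3806007-3914443, plus strand). It rose from 37.1, 33.4, 47.1, 24.3 and 35.8 to 280, 265, 216 and 284, or 7.35-fold on means, with no overlap (log2 fold change 2.86, SE 0.19, adjusted p = 1.82e-08). Of its windows 3.29% occur on the opposite strand of Dnmt3a transcripts, and reads from Dnmt3a introns could not be told apart from it without strand. Both antisense genes with enough reads thus moved in the direction of the gene they lie in. Dnmt3bos had at most 4 reads in a sample and was not tested.

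TET dioxygenases oxidise methylated cytosine, and all 3 genes were lower after culture, although Tet3 was at 0.01 with the GC and length correction. Tet2 fell from 6600, 5767, 6268, 6837 and 6847 to 3359, 3246, 3485 and 3373, 1.92-fold on means (log2 fold change -0.94, SE 0.0702, adjusted p = 5.94e-08; -0.91 with the correction). Tet3 fell from 9234, 8348, 8328, 8144 and 9399 to 5704, 6141, 5759 and 6376 (-0.53, SE 0.0725, adjusted p = 2e-05). Neither overlapped between groups. Tet1 was scarce, at 120, 115, 89.8, 180 and 111 before and 33.6, 44.0, 60.1 and 58.5 after (-1.31, SE 0.228, adjusted p = 0.00018). The log2 ratio of Tet2 to Tet3 went from -0.43 ± 0.11 to -0.83 ± 0.10 (difference -0.40, exact permutation p = 0.0159, 0.0204 adjusted; -0.91 with the correction).

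**Figure D3:**
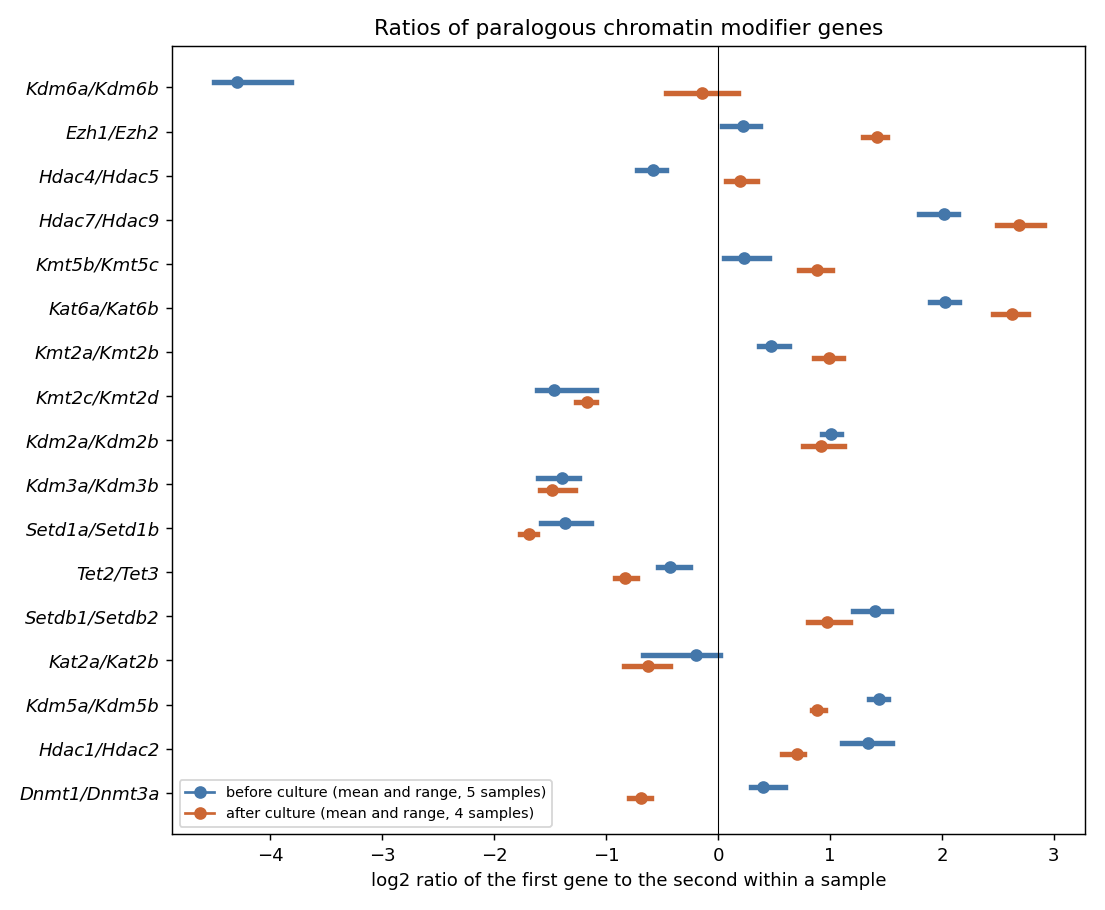
Log2 ratio of the first gene to the second within a sample for 17 of the paralog pairs, as the mean (point) and range (bar) of the 5 samples before (blue) and 4 after culture (orange), ordered by the difference. The Kdm6a/Kdm6b ratio moves from -4.30 to -0.14 and the Ezh1/Ezh2 ratio from 0.23 to 1.42, while the ranges of Kdm2a/Kdm2b, Kdm3a/Kdm3b, Kat2a/Kat2b and Kmt2c/Kmt2d overlap.

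A ratio of paralogs within a sample does not depend on the scaling between samples, and 14 of the 18 pairs compared passed an adjusted p of 0.05 in the exact permutation test, all of them at the smallest p the design allows. The share that passes among pairs of unrelated genes was not computed. The groups did not overlap for 57.3% of all single genes tested, and whether paralogs differ in this from other genes was not tested. The pairs that did not pass were Kdm2a and Kdm2b (1.01 ± 0.07 and 0.92 ± 0.16), Kdm3a and Kdm3b (-1.40 ± 0.14 and -1.49 ± 0.14), Kat2a and Kat2b, and Kmt2c and Kmt2d. The ratio can still depend on GC content and length. With the correction the Kmt2c to Kmt2d difference was -0.32 in place of 0.29 and passed (exact permutation p = 0.0238 adjusted). The Setdb1 to Setdb2 and Kmt5b to Kmt5c pairs did not pass with it. Kdm2a to Kdm2b and Kdm3a to Kdm3b did, at -0.29 and -0.58.

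**Figure D4:**
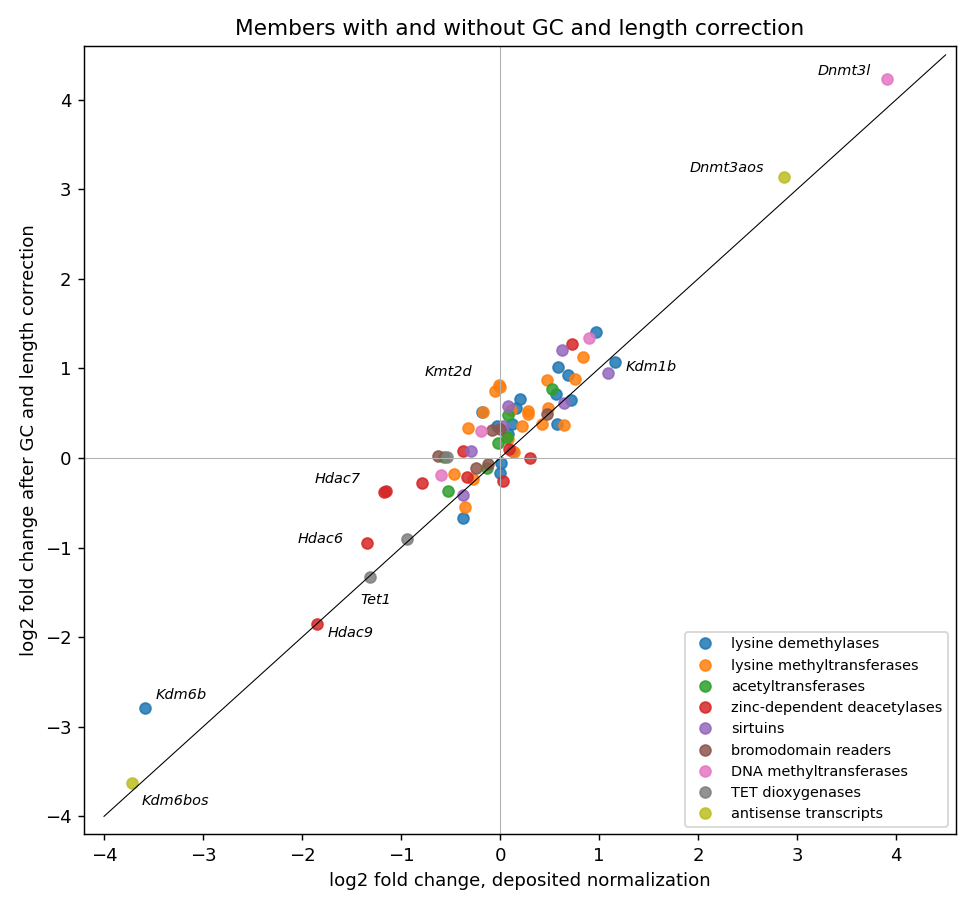
Log2 fold change of 78 tested members with the deposited normalization (x axis) and after the trend with GC content and length was removed from every sample (y axis), coloured by class, with the line of equality. Hdac9 (-1.85 on both axes) and Tet1 (-1.31 and -1.33) lie on the line, and Kmt2d (-0.01 and 0.82), Hdac7 (-1.17 and -0.38) and Kdm6b (-3.58 and -2.79) lie above it.

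The partners of these enzymes were followed in 11 lists of 163 genes with a unique row, of which 161 were tested. Of these, 57 rose, 67 fell and 37 did not pass, or 77.0% changed beside 68.8% of all tested genes, and the median log2 fold change was -0.06. Among the noncatalytic subunits of PRC2, 4 of 9 rose and 4 fell. Phf19, which guides PRC2 to active genes, fell from 405 ± 34.4 to 65.1 ± 12.4 (-2.63, adjusted p = 2.62e-09), and Jarid2, a cofactor of the complex, from 6343 ± 371 to 2759 ± 55.4 (-1.20). Aebp2, another cofactor, rose from 3374 ± 98.4 to 7590 ± 634 (1.17). In Polycomb repressive complex 1, the ubiquitin ligase of the pathway, 7 of 18 rose and 8 fell. Pcgf5 rose from 565 ± 32.7 to 1928 ± 94.8 (1.77) and Cbx2 from 101 ± 12.9 to 237 ± 12.4 (1.23). The median was -0.03 over the PRC2 list and 0.0071 over the other, and both lists held changes in either direction.

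Of 10 subunits shared by COMPASS complexes 3 rose and 5 fell. The core subunits Rbbp5 and Ash2l rose by 0.77 and 0.53, and the small core subunit Dpy30 fell by 0.52 (-0.93 with the correction), which did not pass with quantile scaling (adjusted p = 0.0620). Of 15 further lysine methyltransferases 5 rose and 6 fell, with Dot1l, the enzyme of the histone H3 core, going from 9991 ± 728 to 2944 ± 338 (-1.77, adjusted p = 1.15e-09; -1.08 with the correction). Ehmt1 (GLP) and Suv39h2, which write repressive methylation, rose by 1.07 and 1.20. Of 8 arginine methyltransferases 4 rose and 2 fell, and Prmt1, the main enzyme of the class, fell by 0.88 (-0.48 with the correction) while Prmt2 and Prmt6 rose by 0.95 and 0.70. Of 12 further JmjC proteins 4 rose and 6 fell, among which Hr fell from 993 ± 69.3 to 247 ± 21.8, or 4.02-fold on means (log2 fold change -1.12 with the correction), and Jmjd6 by 1.23.

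Of 11 acetyltransferases outside the Kat symbols 6 rose and 1 fell. The nuclear receptor coactivators went in opposite directions, Ncoa2 from 4804 ± 258 to 8328 ± 500 (0.79) and Ncoa1 from 3504 ± 144 to 1856 ± 133 (-0.92), and Clock, a circadian factor, rose by 0.46 (0.24 with the correction). Of 22 subunits of the corepressor complexes that hold class I deacetylases, 3 rose and 12 fell, with a median of -0.29. Gatad2a, of the NuRD complex, fell by 0.80 (-0.32 with the correction), and Rcor3, of the CoREST family, rose by 0.74. Of 15 readers of DNA methylation and repair factors 5 rose and 7 fell. Uhrf1, which brings Dnmt1 to replicating DNA, fell from 1642 ± 93.0 to 503 ± 77.0 (-1.71, adjusted p = 4.57e-09), and Gadd45a and Gadd45g, stress-inducible genes, fell by 1.49 and 1.71 (-1.40 and -1.08 with the correction). Uhrf1 is a gene of dividing cells, whose markers fell as given above, and the part of those cells in it was not tested.

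Of 23 further bromodomain proteins 7 rose and 10 fell. Phip rose from 3055 ± 349 to 7277 ± 627 (1.25), Baz1a, a chromatin remodeler subunit, fell by 0.74 and Trim28 (KAP1), a corepressor, fell by 0.83 (-0.14 and not past the threshold with the correction). Of 19 enzymes that supply methyl, acetyl and NAD donors or cosubstrates 9 rose and 7 fell. Nampt, the rate-limiting enzyme of NAD salvage, rose from 3002 ± 221 to 9287 ± 751 (1.63, adjusted p = 7.96e-10). Idh1, a source of the 2-oxoglutarate that JmjC and TET enzymes consume, rose from 1419 ± 149 to 5212 ± 804 (1.87). Acss1, a mitochondrial acetyl-CoA synthetase, fell from 1737 ± 170 to 377 ± 39.8 (-2.20). None of the groups overlapped for these 3 genes.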

How the data were processed

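Groups follow the treatment labels. The table that the authors deposited gives normalized read counts by gene (unit: a signal at or above 0). The submitters' processing notes name DESeq2 and GRCm38. Aligner, counting tool, strandedness, annotation and filters are not given in the sources used here. All values above 0 (100%) were whole multiples of the value of 1 read in their column (tolerance 1e-06), so whole reads were recovered for the depths and count models. Rows without a symbol, 3782 of 49317, were left out. They held 6.43 to 10.9% of reads before and 3.87 to 5.46% after culture. All 16 pairs of samples within a group differed by more than counting noise (chi-square over its degrees of freedom 6.81 to 68.7). Before culture, pairs with replicate 4 gave 25.1 to 40.2 and the other pairs 6.81 to 12.0. After culture the pairs gave 13.7 to 68.7. Reads have no molecular identifiers, so the spread between samples serves as the error.

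From the table, log2(value + 1) was fitted in R 4.3.3 with limma 3.58.1 (two-sided, mean-variance trend, no covariate) over the 18202 named rows with a mean of at least 10. P-values were adjusted by Benjamini-Hochberg over all of them. Paralog ratios were compared with SciPy 1.17.1. Enzyme classes and lists are described by counts and medians, with no set test. Members and lists were chosen with earlier results of these data known. Given with values in every sample or as mean and SD are members changed by at least 2-fold at a mean of at least 100 (at most 4 per direction and class), the smallest change of a class and genes of a paralog pair. From each list come up to 3 genes of largest change at a mean of at least 100, and not every gene against its list's median is named. Dnmt3l and Tet1 (under that mean) and other members with values were named because members are accounted for. Values of 1 member, its paralog ratio and 2 list genes are not reported here, and they are in the counts and medians only. Shared 50-base windows, lengths and GC content are from GENCODE M21 (GRCm38.p6), which may not be the authors' annotation. Promoters are from RefSeq (GRCm38.p6).

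Alternatives were pseudocounts of 0.5 and 8, no filter, a minimum mean of 50, quantile and TMM scaling, edgeR 4.0.16, DESeq2 1.42.0, a GC and length correction (mgcv 1.9.3, 97.8% of tested genes), replicate blocks and leaving out each sample. The limma, edgeR and DESeq2 fits were also run on simulated counts with few genes changed and the same dispersion for every gene. These data differ from that setting, so the run checks the code and not the calls made here.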

Additional observations from a re-analysis of the deposited data

Results flagged for a closer look

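Of the tested members 78 were examined in each group for a sample that lay far from the others, by its gap to the nearest sample over the whole range of the group (Dixon's 95% limit). Of 156 combinations of member and group 9 passed, where chance alone gives about 1 in 20. Replicate 4 before culture accounted for 5 of them: it was low for Kat5 (normalized count 782), Kdm5c (3466) and Sirt6 (262), and high for Kdm5b (1309) and Kmt2c (9729). Replicate 3 before culture was low for Brd9 (697). After culture, replicate 1 was low for Kat2b (1116) and high for Kat5 (1025), and replicate 3 was high for Brd9 (663). Without the sample in question, the rises of Kdm5b, Kdm5c, Kmt2c and Sirt6 and the fall of Brd9 still passed by limma, and Kat2b and Kat5 still did not.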

How the results depend on the processing

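Of the 52 members past the threshold, 37 kept direction and call under every alternative run, and 46 did so under every one but the GC and length correction. Of the 27 others, 8 did. Pseudocounts, filters, scalings, count models and leaving out a sample gave 25 to 28 members higher and 24 to 27 lower, against 44 and 15 with the GC and length correction.

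With that correction 43 genes of the lists were lower in place of 67. Class medians became 0.82 for DNA methyltransferases, 0.17 for acetyltransferases, 0.12 for bromodomain readers, 0.45 for demethylases, 0.50 for methyltransferases, 0.58 for sirtuins and -0.26 for zinc-dependent deacetylases. Among the named genes past the threshold with or without it, direction turned for Dnmt1 (0.30), Tet3 (0.0058), Kat2a (0.017), Brd1 (0.32), Brd2 (0.018), Brd3 (0.32), Kdm4b (0.51), Kmt2b (0.74), Kmt2d (0.82), Kmt5c (0.51), Setd1a (0.33), Setd1b (0.79), Sirt2 (0.079), Hdac2 (-0.0046) and Hdac4 (0.075), and among such ratios for Kmt2c to Kmt2d (-0.32). Brd9, Dnmt3b, Hdac10 and Setd4 lost their calls, and Kat5, Kat6a, Kdm1a, Kdm2a, Kdm2b, Kdm4c, Kdm4d, Setd6, Setd7, Sirt4 and Sirt7 gained one. The cause was not tested. The median of DNA methyltransferases was 0.54 with no filter, where a gene of very few reads enters. Quantile scaling gave medians of 0.17 for methyltransferases and 0.24 for sirtuins, and calls for Kdm4d and Setd6. DESeq2 called Setd3 (adjusted p = 0.0391). A minimum mean of 50 gave -0.58 for zinc-dependent deacetylases, with fewer genes tested.

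Leaving out 1 sample at a time gave class medians of -0.044 to 0.017 for acetyltransferases (the highest without replicate 3 after culture), 0.12 to 0.20 for demethylases, 0.10 to 0.18 for methyltransferases (both highest without replicate 2 after culture) and -0.42 to -0.36 for zinc-dependent deacetylases (the lowest without replicate 4 before culture). It gave 14 to 16 paralog pairs past the threshold. Hdac11 and Sirt3 lost their calls in some of these fits. Calls were gained by Dnmt1, by Kdm2b without replicate 2 after culture (adjusted p = 0.0149), by Kmt5c without replicate 4 before (0.0333) and by Setd3 without replicate 3 after (0.0279).

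Titles and library names number the samples differently, and it is not stated whether either marks a shared source, so neither pairing was used in the main fit. Between samples of the same number, correlations of deviations were -0.21 to 0.08 by title and 0.045 to 0.35 by library name. Sample 2 before culture has no library of its number after culture. By library name every other sample correlated best with its own number except sample 5 before culture, a hint from the data and not from the design. A replicate block by title number gave 25 members higher and 23 lower (Hdac11, Kdm4b, Sirt2 and Sirt3 lost their calls), and a block by library name 26 and 27 (Dnmt1 gained one). Each block used only numbers found in both groups. Replicate 5 before culture was thus left out of the title block and replicate 2 before culture of the library block. Changes under a block therefore mix the block with the sample left out. Paralog ratios were not run with count models or with a block. Depth limits Dnmt3c, Dnmt3bos and Kdm4dl, which were not testable, and makes Kdm4d, Hdac11 and Dnmt3l the least precise of the tested members.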
